A study of Rattus norvegicus with 20 samples.

Results

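Lef1, Ccnd1 and Myc, 3 transcripts widely read as outputs of canonical Wnt signalling, were followed with Ctnnb1, which encodes β-catenin itself, through 20 messenger RNA libraries made from neural stem cells of the rat hippocampus, grown in culture. The 4 genes were taken by their Ensembl IDs (Lef1, ENSRNOG00000010121; Ccnd1, ENSRNOG00000020918; Myc, ENSRNOG00000004500; Ctnnb1, ENSRNOG00000054172) from the 32623 IDs of the count table, and all 4 passed the filter on low counts. The IDs came paired with these symbols in the list of genes to be followed, and the gene table used here carries no Ensembl IDs against which the pairing could be checked. For the same reason the markers of neural stem cells, neurons and glia, and the other Wnt target and pathway genes that were listed by symbol, were not analysed here.

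The cells came from adult Fisher 344 rats and were wild-type or carried optoWnt, a light-sensitive Wnt receptor construct introduced by transduction and kept under puromycin selection. They were expanded with FGF-2 on laminin and then moved to a basal medium with N-2 supplement and a little serum. The labels do not say which medium the 0 d libraries were taken from. Every stimulated library came from optoWnt cells, given CHIR99021, Wnt3a at 100 ng/mL or light. The labels state 3 mM for CHIR99021, a concentration far above the usual range for this compound, and the sources used here do not settle whether the unit is right. The stimulus lasted 1 or 3 d without a break with each inducer, 5 d with CHIR99021 and with Wnt3a, or 1 d followed by 1 d or 2 d without it. The unstimulated libraries are those of wild-type and of optoWnt cells that received no inducer, 1 of each at 0, 3 and 5 d. Titles of the unstimulated 3 and 5 d libraries also carry the word ON, and the sources used here do not say whether those cells were lit. Each combination of genotype, inducer and schedule has 1 library, so a group of 2 or 3 libraries holds different genotypes or inducers. The p-values measure the spread that remains between libraries once the terms of a model, such as schedule, inducer and genotype, are fitted. That spread is shared over all libraries of a fit, which the labels do not tie to separate cultures.

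In the canonical pathway, a destruction complex that includes the kinase GSK-3 marks β-catenin for degradation. Wnt ligands, acting through Frizzled and LRP5 or LRP6 receptors, halt that complex, and CHIR99021 blocks GSK-3 directly. Stabilised β-catenin enters the nucleus and binds TCF/LEF proteins on the DNA. Because the pathway acts on the β-catenin protein, the Ctnnb1 transcript is not among its usual outputs and was followed as a contrast. In the adult hippocampus, Wnt signals are known for promoting the production of neurons from neural stem cells.

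Of the 4 genes, 2 had an entry in the RefSeq promoter table (assembly GRCr8): Lef1 and Ctnnb1, not Ccnd1 or Myc. The window of Lef1 is shown because Lef1 is at the same time a TCF/LEF factor and a commonly used TCF/LEF target. It covers the 250 bases before a transcript start, chr2:222340463-222340712 on the plus strand of GRCr8. Capitals mark CTTTG, the first 5 letters of both words searched, without the A that comes next in both. In this window no marked stretch is followed by that A.

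Lef1: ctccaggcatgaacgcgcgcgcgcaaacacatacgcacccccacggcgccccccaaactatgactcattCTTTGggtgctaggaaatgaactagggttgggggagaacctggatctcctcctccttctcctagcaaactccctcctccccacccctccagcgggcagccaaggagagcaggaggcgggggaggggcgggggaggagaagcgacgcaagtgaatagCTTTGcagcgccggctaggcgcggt

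The full words searched on both strands, CTTTGAA and CTTTGAT, occurred 0 times in this window and 0 times in the matching window of Ctnnb1, and 7.58% of 33469 windows of that length held one. The stem CTTTG, marked after the full words had been searched, stood 2 times in the Lef1 window and 1 time in the Ctnnb1 window, on the plus strand, and 48.2% of all windows held it on one strand or the other. These letters describe the windows and were not measured by the assay, which counts the 3′ ends of transcripts.

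Levels are given as CPM, the reads of a gene times 1000000 over all reads of its library. Totals ran from 696463 reads (Wnt3a 1 d ON) to 5935681 (optoWnt 3 d). Over all libraries the 4 genes collected 4740 reads (Lef1), 38882 (Ccnd1), 856 (Myc) and 439 (Ctnnb1), so counting error is small for Ccnd1 and wide for Ctnnb1. Since a 3′ end count depends on how well that end is annotated, levels are compared within a gene and not between genes. In bulk RNA, fewer cells that express a gene and less RNA per cell cannot be told apart. On the first principal component of all 12190 kept genes, which held 29.4% of the variance, 6 libraries stood apart with scores of -41.5 or lower against 8.9 or higher in the other 14. Among unstimulated cells these were the 0 d and 5 d wild-type libraries, among constant stimuli Wnt3a at 5 d and light at 3 d, and among withdrawals Wnt3a and CHIR99021 after 2 d OFF.

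Differences were tested with edgeR's quasi-likelihood test over all kept genes, and a gene is said to have risen or fallen where its Benjamini-Hochberg adjusted p was under 0.05. A log2 fold change of a schedule is a model mean over the inducers, in optoWnt cells. Of 72 tests (18 comparisons of each gene), 3 passed, each of them for Ccnd1 against 0 d. Of the 69 others, 6 had an unadjusted p under 0.05. Over all genes, 238 to 2422 per comparison had such a p, with 11564 to 12190 genes tested.

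**Figure D1:**
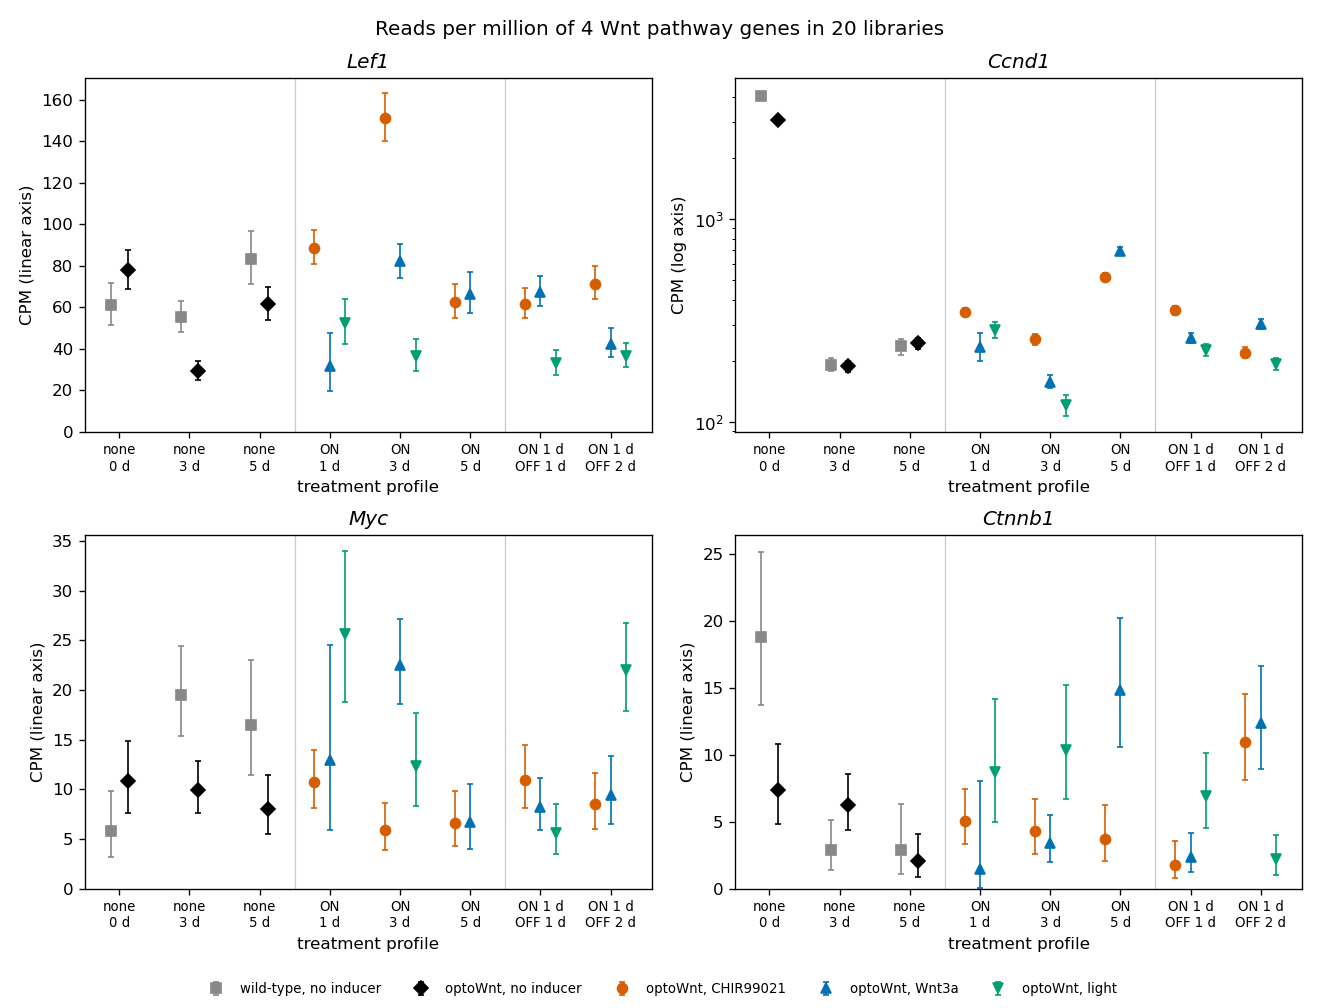
CPM of each gene in the 20 libraries (a log axis for Ccnd1, linear axes for the others) by treatment profile, with exact 95% Poisson intervals that cover counting error only. Ccnd1 stands at 4022 and 3074 CPM at 0 d and at 695.6 CPM or less in every later library, and Lef1 peaks at 151.2 CPM under CHIR99021 at 3 d ON.

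Ccnd1, which encodes cyclin D1, the partner of CDK4 and CDK6 in passage through G1, was by far most abundant at 0 d. It fell in each of the 3 comparisons with 0 d (log2 fold changes from -4.34 to -3.66) and rose in no comparison. At 0 d it stood at 4022 CPM in wild-type and 3074 CPM in optoWnt cells. Without a stimulus it stood at 191.6 CPM (wild-type) and 187.5 CPM (optoWnt) at 3 d, and at 235.2 and 243.9 CPM at 5 d. Both genotypes were therefore high at 0 d, low at 3 and 5 d, and the times did not overlap. In both 0 d libraries Ccnd1 was above each of the 18 others, a pattern shared by 4.0% of the 12190 kept genes.

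Without a stimulus, Ccnd1 fell by 4.34 on the log2 scale from 0 d to 3 d (SE 0.43, edgeR adjusted p = 3e-04, 2 libraries against 2). In that comparison 2.07% of 12190 genes were called, and 0.763% were called lower. It fell by 3.95 on the log2 scale from 0 d to 5 d (SE 0.42, edgeR adjusted p = 0.000163, 2 against 2), where 4.52% of genes were called and 1.5% were called lower. Within genotype, the level at 0 d was 21.0 times (wild-type) and 16.4 times (optoWnt) that at 3 d. Neither fall was called once the 3 wild-type libraries were left out, which leaves 1 unstimulated library per time (edgeR adjusted p = 0.0799 at 3 d and 0.0552 at 5 d, with log2 fold changes of -3.98 and -3.65). Left out singly, no library ended either call.

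The stimulated cells had lost most of their Ccnd1 transcript by 1 d as well. At 1 d ON it stood at 349.1 CPM under CHIR99021, 234.0 CPM under Wnt3a and 283.7 CPM under light. The 3 libraries lay close together, all far below both 0 d libraries. Each was between 0.0582 and 0.114 times each 0 d library. Against 0 d, Ccnd1 fell by 3.66 on the log2 scale (SE 0.38, edgeR adjusted p = 0.000544, 3 libraries against 2). In that comparison 0.574% of 12190 genes were called and 0.279% were called lower. All 3 of these comparisons share the 0 d libraries. Day and stimulus change together there, since the 20 libraries hold no unstimulated one of 1 d, and their parts cannot be told apart.

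Under a constant stimulus, Ccnd1 was lower at 3 d than at 1 d with each inducer. It was higher at 5 d than at 3 d with CHIR99021 and Wnt3a, the inducers sequenced at that time, though far below 0 d. The difference between 5 d ON and 3 d ON was not tested. At 3 d ON it stood at 254.7 CPM (CHIR99021), 157.8 CPM (Wnt3a) and 120.6 CPM (light, the lowest of all 20 libraries). CHIR99021 lay above, and Wnt3a and light below, both unstimulated libraries of 3 d. Against unstimulated 3 d, the 3 d ON libraries gave -0.08 on the log2 scale (SE 0.37, edgeR adjusted p = 0.981), with 0.0% of 12190 genes called. The lower level than at 1 d ON, in 3 of 3 inducers (17.0% of kept genes did the same), came to -0.76 on the log2 scale (SE 0.31, edgeR adjusted p = 0.38) and was not called, in a comparison with 0.0246% of genes called.

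At 5 d ON, Ccnd1 stood at 519.7 CPM under CHIR99021 and 695.6 CPM under Wnt3a, the 2 highest values after 0 d. The unstimulated 5 d libraries lay below both, at 235.2 and 243.9 CPM. Each stimulated library was 2.13 to 2.96 times each unstimulated one, with 95% counting intervals whose lowest bound was 1.97. Such a separation of the 5 d libraries held for 12.7% of the kept genes. The model's log2 fold change of 1.43 (SE 0.42, 95% interval 0.53 to 2.32) had an unadjusted p of 0.00407 but was not called (edgeR adjusted p = 0.381), and 0.0% of genes were called at 5 d. By DESeq2 the adjusted p was 0.0592. The log2 fold change was 0.97 without Wnt3a 5 d ON, and 0.79 (edgeR adjusted p = 0.738) without the 6 libraries that stood apart, which include Wnt3a and wild-type 5 d. Over 3 and 5 d together, the log2 fold change under a constant stimulus was 0.67 (SE 0.30, edgeR adjusted p = 0.483), where 0.197% of genes were called. The 20 libraries hold none of light at 5 d ON, and the model extrapolates what light adds to both values. The tests of 5 d ON and of 3 and 5 d together share the 5 d libraries.

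After withdrawal, Ccnd1 stayed within the range of the other libraries sampled after 0 d. At 1 d ON 1 d OFF it stood at 354.5 CPM (CHIR99021), 259.6 CPM (Wnt3a) and 226.7 CPM (light), against 349.1, 234.0 and 283.7 CPM at 1 d ON. At 1 d ON 2 d OFF it stood at 219.1 CPM (CHIR99021), 303.9 CPM (Wnt3a) and 192.6 CPM (light). CHIR99021 was thus lower, and Wnt3a and light higher, after 2 d OFF than at 3 d ON. The schedules overlapped, and the difference was not called (log2 fold change 0.52, SE 0.31, edgeR adjusted p = 0.634), in a comparison with 0.0% of genes called.

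Ordered by group mean, Ccnd1 stood at 3548 ± 670 CPM at 0 d (SD, n = 2), 607.7 ± 124 CPM at 5 d ON (n = 2) and 289 ± 57.7 CPM at 1 d ON (n = 3). Then came 280 ± 66.4 CPM at 1 d OFF (n = 3), 240 ± 6.15 CPM at unstimulated 5 d (n = 2) and 239 ± 58.1 CPM at 2 d OFF (n = 3). Lowest were unstimulated 3 d, at 190 ± 2.90 CPM (n = 2), and 3 d ON, at 177.7 ± 69.2 CPM (n = 3). Only 0 d and 5 d ON stood off from the next group by more than the larger SD of the pair, where each SD spans genotypes or inducers.

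Lef1, a TCF/LEF transcription factor that partners β-catenin, was higher under CHIR99021 than under light in each of the 4 schedules sequenced with both. Its level reached 151.2 CPM at 3 d of CHIR99021, the highest of all 20 libraries, while light libraries ran from 33.07 to 52.27 CPM. None of its 18 tests passed the threshold (edgeR adjusted p from 0.14 upward), so Lef1 is described here by values and intervals.

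Unstimulated cells varied over much of the range of the stimulated ones. Lef1 stood at 60.94 CPM (wild-type) and 77.89 CPM (optoWnt) at 0 d, at 55.12 and 29.31 CPM at 3 d, and at 83.40 and 61.63 CPM at 5 d. The optoWnt 3 d library was thus the lowest of all 20, and the genotypes changed order between 0 d and the later days. The optoWnt level at 0 d was 2.66 times that at 3 d (95% counting interval 2.19 to 3.23), while in wild-type cells the ratio was 1.11 (0.889 to 1.37). Every comparison with unstimulated 3 d cells rests on these 2 unequal libraries. By group mean Lef1 ran from 42.2 ± 18.3 CPM at unstimulated 3 d (SD, n = 2) to 89.9 ± 57.8 CPM at 3 d ON (n = 3). The 6 other groups lay between 50.2 CPM (2 d OFF) and 72.5 CPM (unstimulated 5 d), and no group stood off from its neighbour in this order by more than the larger SD.

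With CHIR99021, Lef1 stood at 88.58 CPM at 1 d ON, 151.2 CPM at 3 d ON and 62.77 CPM at 5 d ON. With Wnt3a it stood at 31.59, 82.10 and 66.48 CPM at the same times, and with light at 52.27 CPM at 1 d and 36.35 CPM at 3 d. Both CHIR99021 and Wnt3a were thus highest at 3 d, whereas light was lower at 3 d than at 1 d. The Wnt3a 1 d value rests on 22 reads (95% interval 19.8 to 47.8 CPM), the fewest of any Lef1 value. At 1 d ON the 3 inducers straddled the 0 d libraries (log2 fold change -0.25, SE 0.44, edgeR adjusted p = 0.932), a comparison with 0.574% of genes called.

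At 3 d, CHIR99021 was 5.16 times the unstimulated optoWnt and 2.74 times the wild-type level. For Wnt3a the ratios were 2.80 and 1.49, and for light 1.24 and 0.659. Light thus lay between the unstimulated libraries, and the other inducers lay above both. None of the 4 genes had all 3 inducers above both unstimulated 3 d libraries, which 11.2% of kept genes did. Averaged over inducers, the log2 fold change of 3 d ON was 1.14 (SE 0.48, 95% interval 0.12 to 2.16, unadjusted p = 0.0305), which was not called (edgeR adjusted p = 0.552). It was 0.65 without the unstimulated optoWnt 3 d library and 0.78 without CHIR99021 3 d ON.

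At 5 d the CHIR99021 and Wnt3a libraries (62.77 and 66.48 CPM) lay between the unstimulated ones (61.63 and 83.40 CPM). The log2 fold change was -0.08 (SE 0.50, edgeR adjusted p = 0.981), and over 3 and 5 d together it was 0.53 (SE 0.38, edgeR adjusted p = 0.661). Fitted by inducer over 3 and 5 d, constant CHIR99021 came to 1.31 on the log2 scale (SE 0.59, 95% interval -0.02 to 2.63, edgeR adjusted p = 0.428, 2 libraries against 4), where 1.74% of 11566 genes were called. Without CHIR99021 3 d ON it was 0.32, without unstimulated optoWnt 3 d it was 0.66, and without CHIR99021 5 d ON it was 2.09. Constant Wnt3a gave 0.76 (SE 0.57, edgeR adjusted p = 0.877, 0.00865% of genes called). It was 0.15 without unstimulated optoWnt 3 d and 1.4 without unstimulated optoWnt 5 d. Light, with 1 library that is assumed to vary like the others, gave -0.24 (SE 0.76, edgeR adjusted p = 0.924, 0.0% of genes called).

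**Figure D2:**
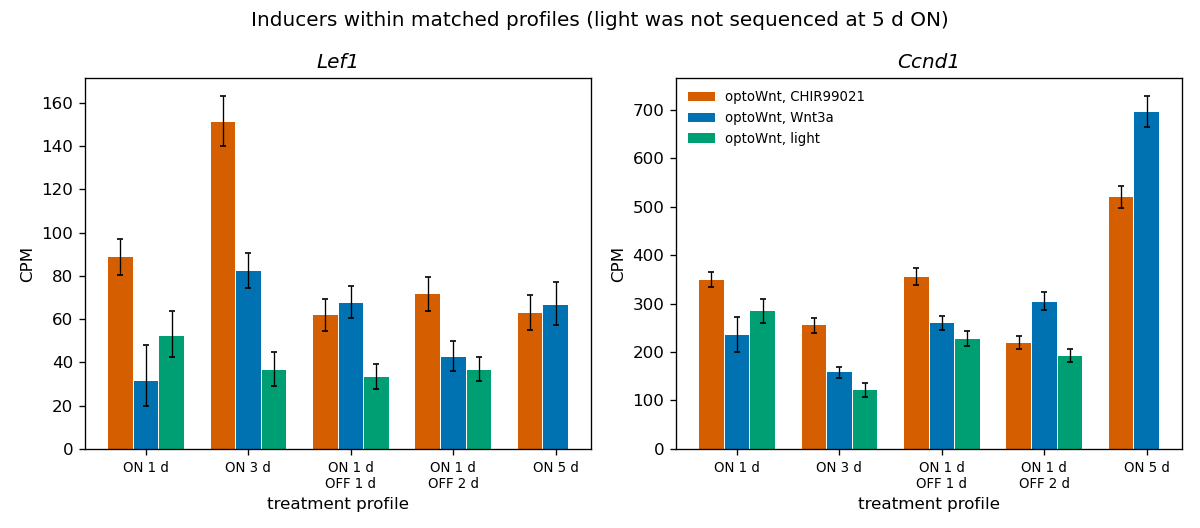
CPM of Lef1 and Ccnd1 (bars from 0, 1 library each) under CHIR99021, Wnt3a and light within each schedule, with exact 95% Poisson intervals for counting error. For both genes the CHIR99021 bar is above the light bar in all 4 schedules that have both, while the order of CHIR99021 and Wnt3a changes between schedules.

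Within matched schedules, the level of Lef1 under CHIR99021 was 1.69 times that under light at 1 d ON (95% counting interval 1.36 to 2.13) and 4.16 times at 3 d ON (3.33 to 5.26). It was 1.87 times (1.51 to 2.33) at 1 d ON 1 d OFF and 1.95 times (1.61 to 2.37) at 1 d ON 2 d OFF. CHIR99021 was higher in 4 of 4 schedules, as it was for 13.8% of the 12190 kept genes. The log2 fold change over the 14 stimulated libraries was 1.06 (SE 0.32, 95% interval 0.35 to 1.76, unadjusted p = 0.00639). edgeR did not call it (adjusted p = 0.14), and DESeq2 did (log2 fold change 1.04, adjusted p = 0.0433). By edgeR 0.862% of 12060 genes were called, and 0.638% were called higher under CHIR99021. DESeq2 called far more genes in this comparison, 750 against 104 by edgeR. Without the 6 libraries that stood apart the log2 fold change was 0.92 (edgeR adjusted p = 0.259).

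The same pair differed less for Ccnd1, again with CHIR99021 higher in 4 of 4 schedules (log2 fold change 0.47, SE 0.27, 95% interval -0.11 to 1.06, edgeR adjusted p = 0.405). For Myc and Ctnnb1 the sign was the other way, with CHIR99021 lower in 3 of 4 schedules for each gene. The log2 fold changes were -0.68 for Myc (SE 0.46, 95% interval -1.68 to 0.31, edgeR adjusted p = 0.493) and -0.91 for Ctnnb1 (SE 0.68, 95% interval -2.39 to 0.57, edgeR adjusted p = 0.547). These intervals include 0, and whether the 4 genes differ from each other in this contrast was not tested.

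CHIR99021 against Wnt3a gave a log2 fold change of 0.56 for Lef1 (SE 0.30, 95% interval -0.08 to 1.21, edgeR adjusted p = 0.687), with 0.0166% of genes called. CHIR99021 was higher at 1 d ON, 3 d ON and 2 d OFF (ratios 2.80, 1.84 and 1.68) and slightly lower at 5 d ON and 1 d OFF (0.944 and 0.914), where the counting intervals include 1. Wnt3a against light gave 0.49 (SE 0.33, 95% interval -0.22 to 1.21, edgeR adjusted p = 0.632), with 0.0% of genes called. Wnt3a was higher in 3 of 4 schedules there and lower at 1 d ON, where it has 22 reads. None of the 4 genes had CHIR99021 above Wnt3a in all 5 schedules, or Wnt3a above light in all 4, patterns of 5.05% and 8.88% of kept genes. A p above the threshold does not show that a pair of inducers act alike, and both of these intervals for Lef1 reach beyond a 2-fold difference.

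After 2 d of withdrawal Lef1 stood below its 3 d ON level with CHIR99021 and Wnt3a and at about that level with light. At 1 d ON 2 d OFF, Lef1 stood at 71.39 CPM (CHIR99021), 42.47 CPM (Wnt3a) and 36.61 CPM (light), against 151.2, 82.10 and 36.35 CPM at 3 d ON. The ratios were 0.472, 0.517 and 1.01. The averaged log2 fold change was -0.68 (SE 0.37, 95% interval -1.47 to 0.11, edgeR adjusted p = 0.61), which was not called. It was -0.35 without CHIR99021 3 d ON. The CHIR99021 level after 2 d OFF was still above both unstimulated 3 d libraries, and the Wnt3a and light levels lay between them. One day after withdrawal Lef1 stood at 61.76 CPM (CHIR99021), 67.54 CPM (Wnt3a) and 33.07 CPM (light). None of the 4 genes was lower after 2 d OFF than at 3 d ON with all 3 inducers, or lower after 1 d OFF than at 1 d ON, as 13.4% and 14.5% of kept genes were. Whether withdrawal acted differently by inducer was tested as an interaction over 12 libraries, and none of the 4 genes passed (edgeR adjusted p from 0.91 to 0.915, 0.0% of 11564 genes called).

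**Figure D3:**
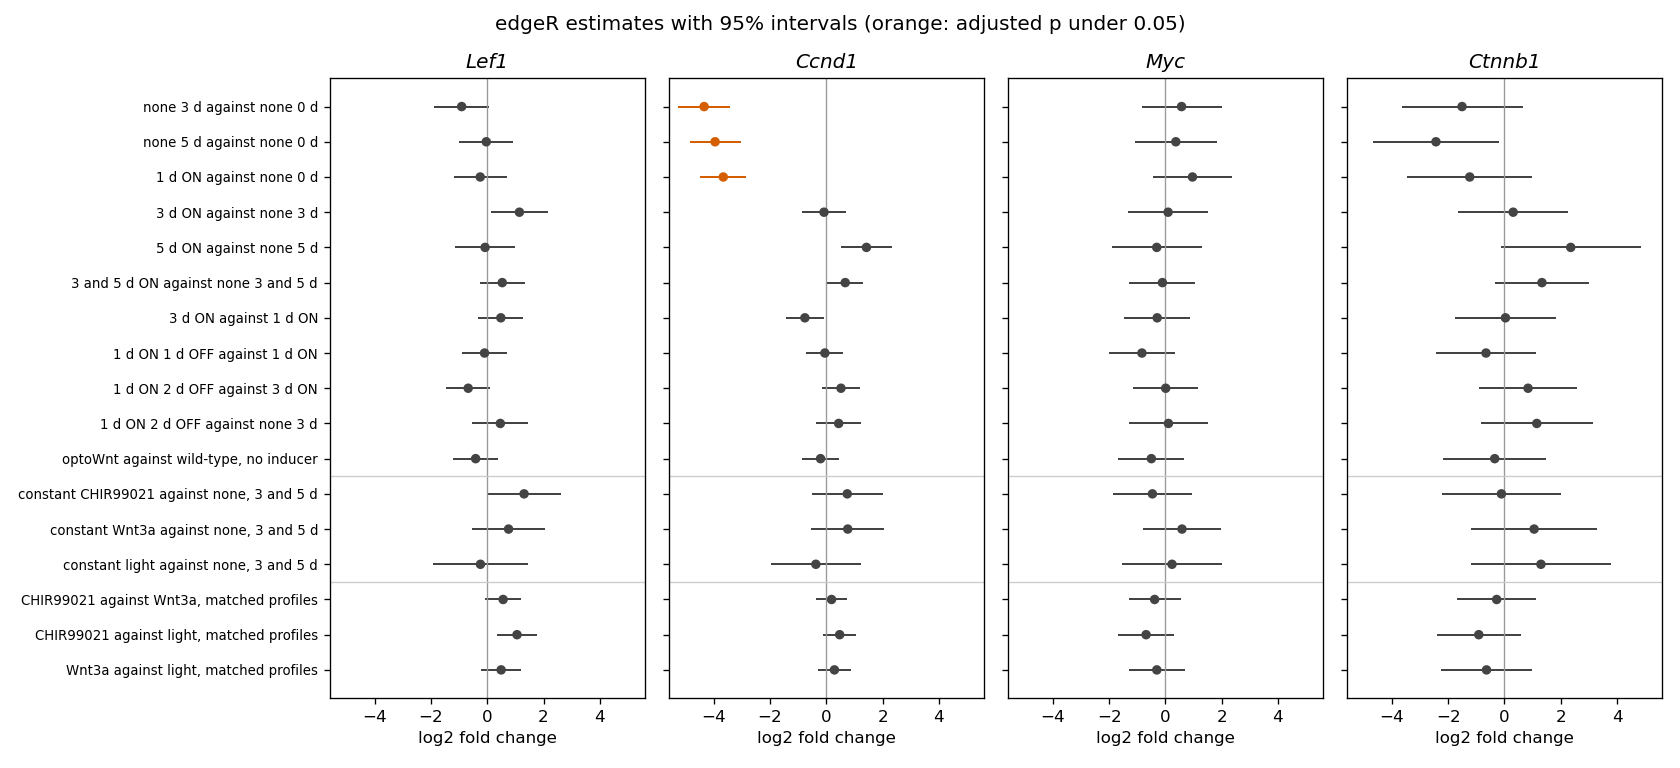
edgeR log2 fold changes (x axis) with 95% intervals for each gene in 17 comparisons (y axis), from the 20-library fit above the first grey line, the 9-library fit between the lines and the 14-library fit below. The 3 orange estimates, all of Ccnd1 against 0 d, are the ones with an adjusted p under 0.05.

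Myc encodes a transcription factor that drives growth and proliferation genes. It was thinly and unevenly counted here, from 5.6 to 25.59 CPM on 9 to 112 reads per library, with high and low values under each of Wnt3a and light. None of its 18 tests passed, and none had an unadjusted p under 0.05 (edgeR adjusted p from 0.493 upward). At 0 d it stood at 5.84 CPM (wild-type) and 10.8 CPM (optoWnt), at 3 d at 19.5 and 9.94 CPM, and at 5 d at 16.5 and 8.03 CPM. Wild-type cells were thus the higher at 3 and 5 d and the lower at 0 d.

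Under CHIR99021, Myc stood at 10.7, 5.89 and 6.65 CPM at 1, 3 and 5 d ON and at 10.97 and 8.50 CPM after 1 and 2 d OFF. Under Wnt3a the values were 12.9, 22.5 and 6.69 CPM ON and 8.19 and 9.47 CPM OFF. Under light they were 25.6 and 12.4 CPM at 1 and 3 d ON and 5.6 and 22.01 CPM after 1 and 2 d OFF. The CHIR99021 libraries of 3 d ON, 5 d ON and 2 d OFF each lay below both unstimulated libraries of their day. Wnt3a was also below both at 5 d ON and after 2 d OFF, and above both at 3 d ON. Light lay between them at 3 d ON and above both after 2 d OFF. Both 5 d ON libraries were thus below both unstimulated 5 d libraries, as they were for 15.9% of kept genes. How many kept genes shared the other orders was not counted. Against unstimulated optoWnt cells, 95% counting intervals of the ratio included 1 for CHIR99021 at 5 d ON (0.469 to 1.45) and 2 d OFF (0.554 to 1.31). So did those of Wnt3a (0.439 to 1.54 and 0.603 to 1.48). Against wild-type cells these intervals lay below 1. At 3 d ON both intervals of CHIR99021 lay below 1.

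The averaged log2 fold change of Myc at 1 d ON against 0 d was 0.96 (SE 0.65, 95% interval -0.43 to 2.36, edgeR adjusted p = 0.771). Leaving out the optoWnt library of 0 d gave 2.17, and leaving out the wild-type one gave 0.52. One day of withdrawal gave -0.83 against 1 d ON (SE 0.55, 95% interval -2.01 to 0.35, edgeR adjusted p = 1.0), with 0.0% of genes called. It was -0.335 without light 1 d OFF and -1.47 without CHIR99021 1 d OFF. The inducers were uneven there, with light at 25.6 and 5.6 CPM, a ratio of 0.219 (95% counting interval 0.124 to 0.373). The ratio was 1.02 for CHIR99021 (0.681 to 1.53) and 0.634 for Wnt3a (0.304 to 1.48), so both of these intervals include 1. Light at 2 d OFF, at 22.01 CPM, was close to its 1 d ON level. By group mean Myc ran from 6.67 ± 0.0255 CPM at 5 d ON (SD, n = 2) to 16.4 ± 8.02 CPM at 1 d ON (n = 3), and no group stood off from its neighbour in this order by more than the larger SD.

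Ctnnb1 was counted on 1 to 49 reads per library, so its values are wide. It stood at 18.8 CPM (wild-type) and 7.39 CPM (optoWnt) at 0 d, at 2.86 and 6.23 CPM at 3 d and at 2.91 and 2.07 CPM at 5 d. Both 0 d libraries were above both 5 d libraries. How many kept genes did the same was not counted, so this order is not shown to be particular to Ctnnb1. The model gave a log2 fold change of -2.43 (SE 1.05, unadjusted p = 0.0349, edgeR adjusted p = 0.211), which was not called. It was -1.33 without wild-type 0 d. Between those times 4.52% of 12190 genes were called.

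Under CHIR99021, Ctnnb1 stood at 5.07, 4.30 and 3.72 CPM at 1, 3 and 5 d ON and at 1.79 and 10.97 CPM after 1 and 2 d OFF. Under Wnt3a the values were 1.44, 3.42 and 14.9 CPM ON and 2.40 and 12.3 CPM OFF. Under light they were 8.71 and 10.3 CPM ON and 6.93 and 2.18 CPM OFF. Wnt3a 1 d ON rests on a single read. No inducer was high or low throughout, and the values of Wnt3a and CHIR99021 after 2 d OFF were high where that of light was low. By group mean Ctnnb1 ran from 2.49 ± 0.592 CPM at unstimulated 5 d to 13.1 ± 8.05 CPM at 0 d (SD, n = 2 each), with no neighbours in the order further apart than the larger SD.

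At 5 d ON both libraries lay above both unstimulated ones, as they did for 12.7% of kept genes. CHIR99021 had 14 reads, and its ratios to optoWnt and wild-type had 95% counting intervals that include 1 (0.704 to 4.95 and 0.462 to 4.06). Those of Wnt3a lay above 1 (3.31 to 17.7 and 2.15 to 14.7). The log2 fold change of 5 d ON was 2.36 (SE 1.17, 95% interval -0.13 to 4.84, edgeR adjusted p = 0.642). It was 1.19 without the 6 libraries that stood apart and 1.0 without Wnt3a 5 d ON. Over 3 and 5 d the log2 fold change was 1.33 (SE 0.78, edgeR adjusted p = 0.598), with 0.65 when Wnt3a 5 d ON was left out and 0.43 without the 6 libraries.

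The level of Ctnnb1 tended to be higher in the 6 libraries that stood apart on the first component. In those 6 libraries it ran from 2.91 to 18.8 CPM with a median of 11.7 CPM, and in the other 14 from 1.44 to 8.71 CPM with a median of 3.57 CPM. In 5 of the 6 it was above every one of the 14, and wild-type 5 d was the exception. The 6 were set apart by the widest gap in the score, and how many kept genes separate them in this way was not counted. The separation is therefore not shown to be particular to Ctnnb1. Pearson's r between the log2 CPM of Ctnnb1 and the component score was -0.716 over 20 libraries. It is a description without a test, since the score is computed from the kept genes, Ctnnb1 among them. For the other genes r was -0.0935 (Lef1), -0.316 (Ccnd1) and 0.194 (Myc). Of the 6 libraries, 0 were above all of the 14 for Lef1, 1 for Ccnd1 and 0 for Myc. The ranges in the 6 and the 14 libraries overlapped for all 4 genes. The component's part in any difference of Ctnnb1 was not tested.

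**Figure D4:**
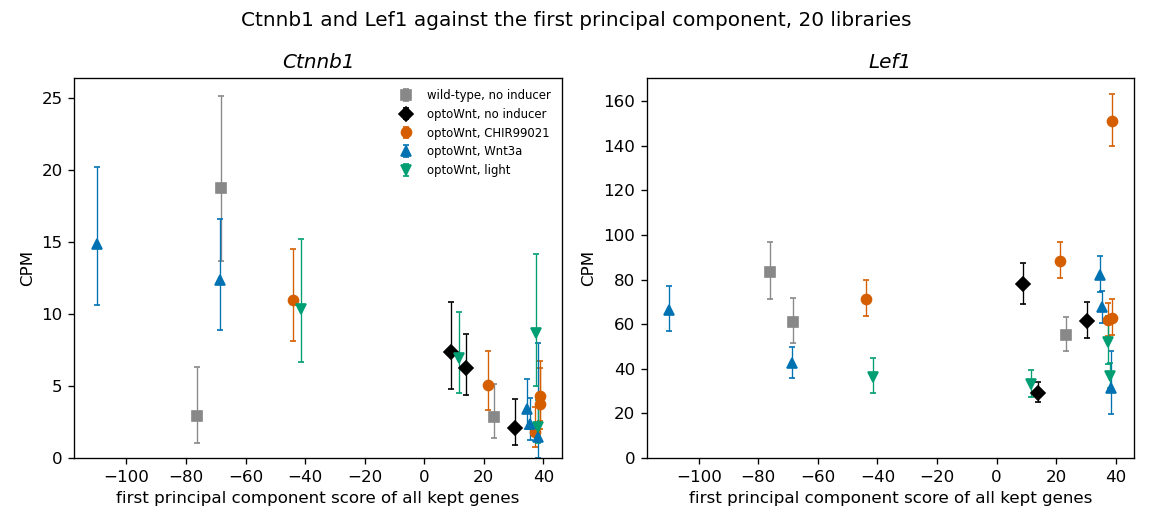
CPM of Ctnnb1 and Lef1 (y axes, with exact 95% Poisson intervals) against the first component score of each of the 20 libraries (x axes). Ctnnb1 is above 10 CPM in 5 of the 6 libraries on the left and in none of the 14 on the right. Lef1 is at 36.35 to 83.4 CPM on the left and 29.31 to 151.2 CPM on the right. The ranges on the left and right overlap for both genes.

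No pair of the 4 genes was strongly correlated, with r from -0.341 to 0.475. Across the 20 libraries Pearson's r of log2 CPM was 0.328 between Lef1 and Ccnd1, -0.217 between Lef1 and Myc, and -0.341 between Ccnd1 and Myc, given as a description with no test. With Ctnnb1, r was 0.0448 for Lef1, 0.475 for Ccnd1 and -0.315 for Myc. Leaving out the 0 d libraries took the value of Ccnd1 and Ctnnb1 to 0.22 over 18 libraries, and that of Lef1 and Ccnd1 to 0.342. The libraries of one schedule share their time in culture, so these points are not independent. Counting error weakens r, and Myc (9 to 112 reads per library) and Ctnnb1 (1 to 49) were thinly counted. A low r therefore does not show that the genes moved separately.

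None of the 4 genes was called between optoWnt and wild-type cells without a stimulus (3 libraries against 3), and none was lower in optoWnt cells at all 3 times, as 12.7% of kept genes were. Log2 fold changes of optoWnt against wild-type were -0.41 (SE 0.37) for Lef1, -0.20 (SE 0.31) for Ccnd1, -0.50 (SE 0.55) for Myc and -0.34 (SE 0.86) for Ctnnb1, with edgeR adjusted p from 0.761 to 0.922. Leaving out either 0 d library turned the sign for Ccnd1 (up to 0.0465) and Ctnnb1 (up to 0.457). In that comparison 0.0% of 12190 genes were called by edgeR, 956 had an unadjusted p under 0.05 and DESeq2 called 12. For the other comparisons in which edgeR called no gene, the unadjusted and DESeq2 counts were 1031 and 111 at 3 d ON against unstimulated 3 d, and 961 and 100 at 5 d ON. They were 238 and 0 for 1 d OFF against 1 d ON, 1095 and 47 for 2 d OFF against 3 d ON, and 898 and 0 for 2 d OFF against unstimulated 3 d. For constant light they were 800 and 9, for Wnt3a against light 1257 and 152, and for the interaction 400 and 12.

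The transcripts whose log2 CPM followed each gene most closely over the 20 libraries, among 9582 other IDs with a mean of at least 5 CPM, are given by ID. For Lef1 these were ENSRNOG00000054031 (Pearson's r 0.848) and ENSRNOG00000004367 (0.843). For Ccnd1 they were ENSRNOG00000020022 (0.898) and ENSRNOG00000007319 (0.89), and for Myc ENSRNOG00000042389 (0.813) and ENSRNOG00000004727 (0.795). For Ctnnb1 they were ENSRNOG00000060012 (0.909) and ENSRNOG00000055825 (0.901). Each is the highest or second highest of 9582 values, with no test.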

How the data were processed

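The authors deposited raw counts, whole-number reads per Ensembl gene and well, with no normalization. Wells were tied to libraries through the descriptions in the labels. Libraries were made with Lexogen's 3′ kit for low RNA input, per the labels' protocols. Bowtie2, Subread, featureCounts and the build Rnor_6.0 are named in the submitters' processing notes. Tool versions, the strand setting and how multiply mapped reads were handled were not given in the sources used here. Overlapping or near-identical genes may thus share reads.

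CPM used each library's total of the deposited counts. Tests used edgeR 4.0.16 (R 4.3.3, limma 3.58.1) with TMM scaling and filterByExpr by schedule. The 20-library model had terms for schedule, inducer and genotype (12190 genes, with 9 residual degrees of freedom). Constant inducers were fitted on 9 libraries (11566 genes, 3 residual degrees of freedom), inducer pairs on 14 (12060 genes, 7) and the interaction on 12 (11564 genes, 4). P-values were adjusted over all genes of a fit. The fitting code was tested on simulated data. DESeq2 1.42.0, other scalings, filters and terms, and leaving out libraries were alternatives. Named genes are the 4 genes and, for each, the 2 IDs of highest r. The genes, lists and tests were chosen with earlier results of these data known. Counting intervals and 95% Poisson limits cover counting error only.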

Additional observations from a re-analysis of the deposited data

How the results depend on the processing

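Across 72 tests, 1703 alternative values were computed, 1200 of them with 1 library left out. No call was lost or gained by leaving out 1 library. Under the other settings 2 calls were lost and 1 was gained. Without the wild-type libraries, Ccnd1 at 3 d and 5 d against 0 d was no longer called (log2 fold changes -3.98 and -3.65), in a fit with 1 library per time. By DESeq2, Lef1 under CHIR99021 against light was called (log2 fold change 1.04), where DESeq2 called 750 genes and edgeR 104. The cause of this gain was not tested. Signs changed for 33 tests, whose log2 fold changes in the main fits were at most 1.15 in size. The changed values could be larger, such as -2.52 for Ctnnb1 at 2 d OFF against unstimulated 3 d. Among the values reported, the sign changed with 1 library left out for Lef1 at 1 d ON against 0 d (-0.575 to 0.311) and at 5 d ON (-0.553 to 0.325). It also changed for Ccnd1 at 3 d ON (-0.405 to 0.0867) and Lef1 under constant light (-1.02 to 0.232). For optoWnt against wild-type it changed for Ccnd1 (-0.258 to 0.0465) and Ctnnb1 (-1.08 to 0.457). Without the inducer term, Lef1 at 5 d ON was 0.14. Without the 6 libraries that stood apart, optoWnt against wild-type was 0.0766 for Ccnd1 and 1.22 for Ctnnb1. Further uncalled values kept their sign but moved by over 1.5 times with 1 library left out. For CHIR99021 against light these ran from 0.29 to 0.607 (Ccnd1), -1.05 to -0.328 (Myc) and -1.55 to -0.468 (Ctnnb1). For Lef1 they ran from 0.332 to 0.749 (CHIR99021 against Wnt3a), 0.26 to 0.731 (Wnt3a against light) and 0.192 to 0.719 (3 and 5 d ON). For Ccnd1 they ran from 0.443 to 0.847 (3 and 5 d ON) and 0.289 to 0.798 (2 d OFF against 3 d ON). The called falls of Ccnd1 ranged from -4.57 to -4.0 at 3 d, from -4.23 to -3.64 at 5 d and from -4.06 to -3.44 at 1 d ON. TMM-scaled totals moved the mean CPM at 5 d ON to 70.5 for Lef1 and 7.27 for Myc, and at unstimulated 5 d to 246 for Ccnd1. No paired analysis was possible because the labels carry no replicate numbers to use as a block. Inducers and genotypes are matched by schedule alone.

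Counts of called genes, which give the background, moved more. With 1 library left out, they ran from 17 to 357 at 3 d against 0 d (252 with all), 32 to 730 at 5 d (551) and 4 to 95 at 1 d ON (70). They ran from 0 to 98 for 3 and 5 d ON (24), from 0 to 445 for constant CHIR99021 (201) and from 3 to 131 for CHIR99021 against light (104). DESeq2 called 631, 1234, 283, 276, 629 and 750 genes in these comparisons. Constant light cannot be fitted without its library. Depth limits Ctnnb1 and Myc most, with as few as 1 and 9 reads in a library.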
